A study of Mus musculus with 17 samples.

Results

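The transcripts described here are those of the immunoglobulin chains and of the J chain in antibody-secreting cells (ASCs) from the bone marrow of young and aged mice. Of the 45281 probes of the array, 29 carry a name that begins with Igh, Igk or Igl or is that of the J chain. They comprise 7 probes of heavy chain constant regions, 11 of heavy chain variable segments, 1 of the kappa constant region, 8 of kappa variable segments, 1 of a lambda constant region and 1 of the J chain. The platform annotation names 2 of them, Ighg1 and Jchain. The other 27 were named only through the study's own list of 2175 probes that differed with age, and that list was chosen by its p on the same samples and the same contrast. For these 27 the difference between aged and young is therefore given as a description without a test, and Ighg1 and Jchain, which that list also holds, were tested. Probes of Igll1 and Ighmbp2, whose names begin alike but which encode the surrogate light chain and a DNA-binding protein, were left out, and so were 30 listed probes with an immunoglobulin description under another symbol.

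An antibody is built from paired heavy and light chains, and each chain joins a variable segment, which with its short joining segments forms the antigen-binding part, to a constant region. The heavy chain constant region sets the class, which is IgM before switching and IgG, IgA or IgE after it, and the light chain is either kappa or lambda, with kappa the more common in mice. ASCs transcribe these rearranged genes at very high levels, and the J chain links the units of polymeric IgM and IgA. A single clone of ASCs uses 1 rearranged heavy chain segment and 1 light chain segment, so that the level of a segment in a sorted population follows both the number of cells that use it and the RNA in each of them.

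The young mice were 6 to 8 weeks and the aged mice over 17 months old and came from Charles River. Their strain is not given in the labels. ASCs were sorted from the marrow of the hind legs by surface markers, and the gate shown by the study for counting ASCs takes, among other markers, CD3-, CD14- and IgD- live cells that are CD138+ and positive for intracellular IgG. The RNA of 9 young and 6 aged samples was hybridised to 17 Illumina arrays (MouseWG-6 v2), since young samples 3 and 4 were each run on 2 arrays. Mice with few cells were pooled, the labels do not say which samples are pools, and the study names more aged mice than there are aged samples, so that pooling cannot be told apart from age. All levels are log2 of quantile normalized signals, repeat arrays were averaged, and a difference is the aged mean minus the young mean.

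The arrays detected 8998 to 17120 probes each (detection p-value under 0.05). Markers of plasma cells, with a probe for 7 of 7 listed genes, had a summed signal of 3413 to 5572 in young and of 6069 to 10060 in aged samples. All 7 were detected in each aged sample except aged sample 2, which had 4. Each young sample had 4 or 5 detected, except young sample 4 with 7. That sample was run on 2 arrays, and detection on either array counted. Sdc1, which encodes the CD138 of the gate, was above background in 1 of the 9 young but in 5 of the 6 aged samples. Markers of precursor B cells (4 of 5 listed genes with a probe) summed to 2527 to 6084 in young and 1036 to 1632 in aged samples, with 4 detected in each young and 0 to 3 in the aged samples. Markers of neutrophils, 7 of 7 detected in every sample, summed to 23132 to 54228 in young and 21917 to 45937 in aged samples. The part of these cell types in the differences below was not tested. In such bulk samples fewer cells of a type and less RNA per cell cannot be told apart.

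All 29 probes had a higher mean in aged than in young samples, against 48.2% of the 11073 probes that passed the filter on low values. Their median difference was 0.87, against a median of -0.01 over the tested probes, and single differences ran from 0.17 for Jchain to 2.14 for the kappa segment Igk-V21-4. Since 27 of the probes were named because they differed on this contrast, nothing about immunoglobulins as a class can be read from this count. Divided by the within-group SD, the differences that the list let in began at 0.99 for Igh-VS107 and 1.06 for Jchain, and probes just outside it carry no such name here. In every sample 26 of the 29 were detected. The heavy segment IGHV9S5 was above background in 1 young and 5 aged samples and the kappa segment IGKV2-112 in 0 and 2. Neither passed the filter, which left 27. All 6 aged samples lay above the young median for 15 probes, 5 of 6 for 13, and 4 of 6 for Igk-C.

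Aged sample 2 stood apart from the other aged samples. Its mean deviation from the young means over the 29 probes was -0.003, whereas the other aged samples lay 1.03 to 1.33 above, and the young samples lay between -0.27 and 0.22. It was the lowest aged sample for 23 of the 29 probes and fell below the young median for 12. Its summed plasma cell markers (6069) were the lowest of the aged samples, and its precursor B markers (1036, none detected) were the lowest of all samples. With all samples, 1 probe (Igk-V21-2) had every aged above every young sample, against 0.443% of tested probes. Without aged sample 2, a choice made after its values were seen, this held for 11 probes, 7 of them of variable segments, against 1.44% of tested probes, and all 29 means remained higher in the aged. Since 27 of the 29 probes were named because they differed on this contrast, a count above the share of all tested probes is no result about immunoglobulins.

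**Figure D1:**
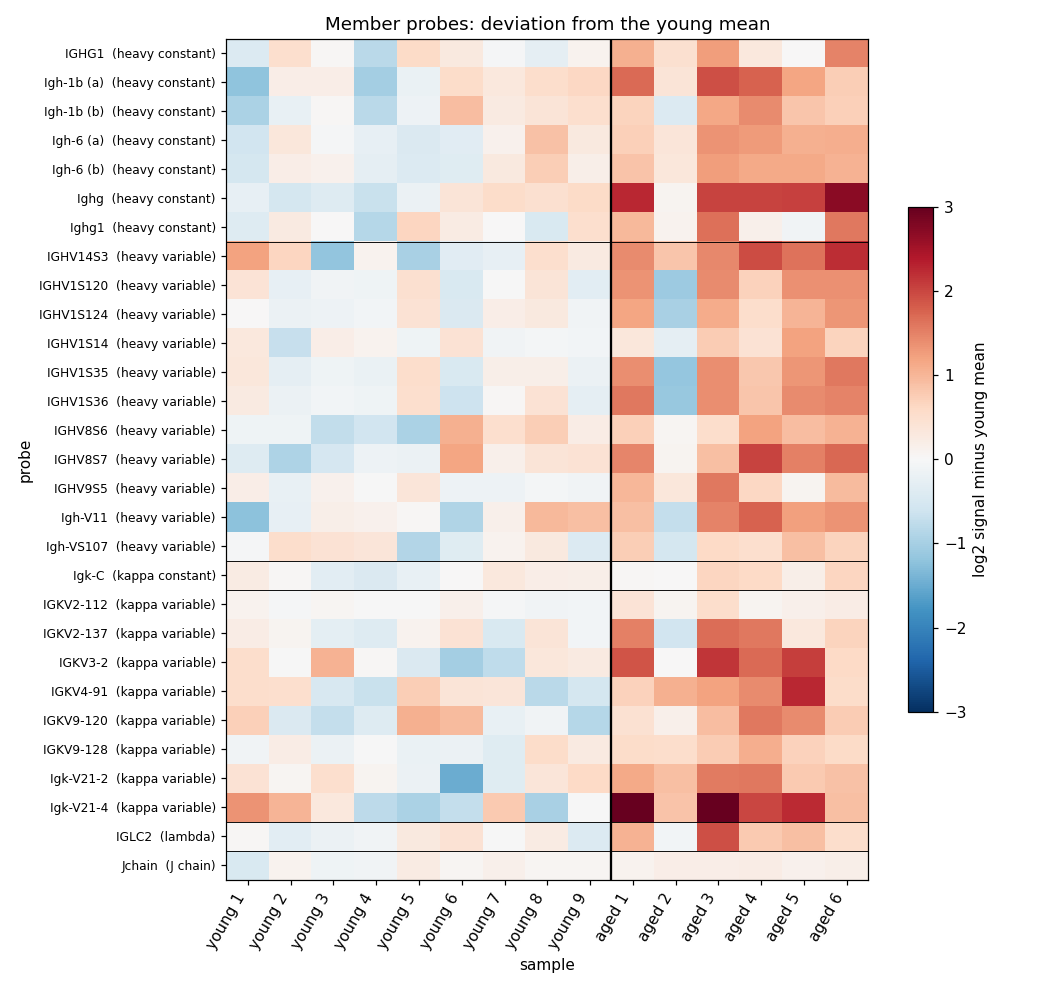
Deviation of each of the 29 probes (vertical) from its young mean on the log2 scale, in each of the 9 young and 6 aged samples (horizontal). Red is above and blue below the young mean. Aged samples 1, 3, 4, 5 and 6 are red for nearly all probes, with mean deviations of 1.03 to 1.33, whereas aged sample 2 is blue for several heavy variable segments and has a mean deviation of -0.003.

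Igh-6, an older symbol of Ighm, encodes the constant region of the mu heavy chain of IgM, and 2 probes carry this name. The log2 signal of the first, Igh-6 (a), was 12.40 at the lowest, 12.95 at the median and 13.85 at the highest in young samples, and 13.34, 14.06 and 14.33 in aged samples. That of Igh-6 (b) was 12.28, 12.92 and 13.54 in young and 13.14, 13.89 and 14.06 in aged samples. For both, young sample 8 was the highest young sample and reached into the aged range, and aged sample 2 was the lowest aged one. The means differed by 0.98 (12.98 ± 0.46, SD, n = 9, against 13.96 ± 0.38, SD, n = 6) for Igh-6 (a) and by 0.96 for Igh-6 (b). Both probes were detected in every sample.

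The constant regions of IgG were represented by 5 probes. Ighg1 and IGHG1 belong to IgG1, the probe named Ighg carries the second symbol Igh-3, an older name of Ighg2b, and Igh-1b, with 2 probes, is an older name of Ighg2c. The sequences of IgG subclasses are close to each other, and whether a probe also binds another subclass cannot be told here, since probe sequences were not used. No probe was named for the constant regions of IgG3, IgA, IgD or IgE. Names came only from the annotation or from the study's list, so whether the array holds such probes cannot be told from this.

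Ighg1 was the only IgG probe with a test. Its log2 signal was 11.18 at the lowest, 12.05 at the median and 12.68 at the highest in young samples, and 11.94, 12.59 and 13.69 in aged samples. Aged samples 1, 3 and 6 (13.01 to 13.69) lay above every young sample, and aged samples 2, 4 and 5 (11.94 to 12.18) lay within the young range. The difference was 0.73 (standard error 0.28, 12.04 ± 0.49, SD, n = 9, against 12.77 ± 0.78, SD, n = 6), which is a 1.66-fold higher level, and did not pass the threshold (unadjusted p = 0.0174, adjusted p = 0.227 from limma). At an adjusted p under 0.05, 1.38% of the tested probes were called, 1.06% higher and 0.325% lower in the aged, and 14.1% had an unadjusted p under 0.05. The other IgG1 probe, IGHG1, was at 10.41, 11.26 and 11.80 in young and 11.22, 11.99 and 12.69 in aged samples, and the same aged samples 1, 3 and 6 were above the young range.

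The IgG2b probe Ighg showed another pattern over the aged samples. In log2 units it was 10.95 at the lowest, 11.46 at the median and 12.20 at the highest in young samples, whereas aged samples 1, 3, 4, 5 and 6 were at 13.64 to 14.33 and aged sample 2 was at 11.71. The means differed by 1.86 (11.63 ± 0.50, SD, n = 9, against 13.48 ± 0.91, SD, n = 6), the largest difference of the constant regions, and by 2.21 without aged sample 2. Relative to its within-group SD this difference was also the largest of all 29 probes (2.71 SDs). Aged samples 4 and 5, which lay within the young range for Ighg1, thus lay above every young sample for Ighg.

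The first IgG2c probe, Igh-1b (a), was at 10.37, 11.77 and 12.18 (lowest, median and highest) in young and at 11.96, 13.01 and 13.49 in aged samples. The second, Igh-1b (b), was at 11.40, 12.38 and 13.26 in young and 11.94, 13.12 and 13.77 in aged samples. Young samples 1 and 4 were the lowest for both, and aged sample 2 was the lowest aged sample for both. The differences of 1.28 and 0.73 thus came from probes of the same gene and did not have the same size.

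Igk-C is the constant region of the kappa chain. Its signal before normalization was 12409 to 36159 per array, below the highest signal of any array (48154 to 70849). On the log2 scale it was 13.90 at the lowest, 14.36 at the median and 14.65 at the highest in young samples, and 14.33, 14.71 and 14.98 in aged samples. Aged samples 3, 4 and 6 lay above every young sample, and the other aged samples lay within the young range. The means differed by 0.35 (14.33 ± 0.26, SD, n = 9, against 14.68 ± 0.32, SD, n = 6). IGLC2, a constant region of the lambda chain, was at 10.91, 11.29 and 11.73 in young and at 11.22, 12.15 and 13.25 in aged samples. Its 5 aged samples other than sample 2 were at 11.85 or above and thus above every young sample, with aged sample 3 the highest, and the means differed by 0.85 (11.31 ± 0.28, SD, n = 9, against 12.16 ± 0.67, SD, n = 6).

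The J chain, made by ASCs and added to polymeric antibodies, had the smallest difference. The log2 signal was 11.82 at the lowest, 12.32 at the median and 12.51 at the highest in young samples, and 12.39, 12.45 and 12.48 in aged samples. All aged samples lay above the young median and within the young range, and aged sample 2 (12.48) did not stand apart. The difference was 0.17 (standard error 0.13, 12.27 ± 0.20, SD, n = 9, against 12.44 ± 0.04, SD, n = 6) and did not pass the threshold (adjusted p = 0.611 from limma). Young sample 1 was the lowest young sample, and without it the difference was 0.11 (adjusted p = 0.739 from limma). Under scaling to the 75th percentile the difference was 0.47 (adjusted p = 0.489 from limma) and without normalization 0.51 (adjusted p = 0.614 from limma).

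**Figure D2:**
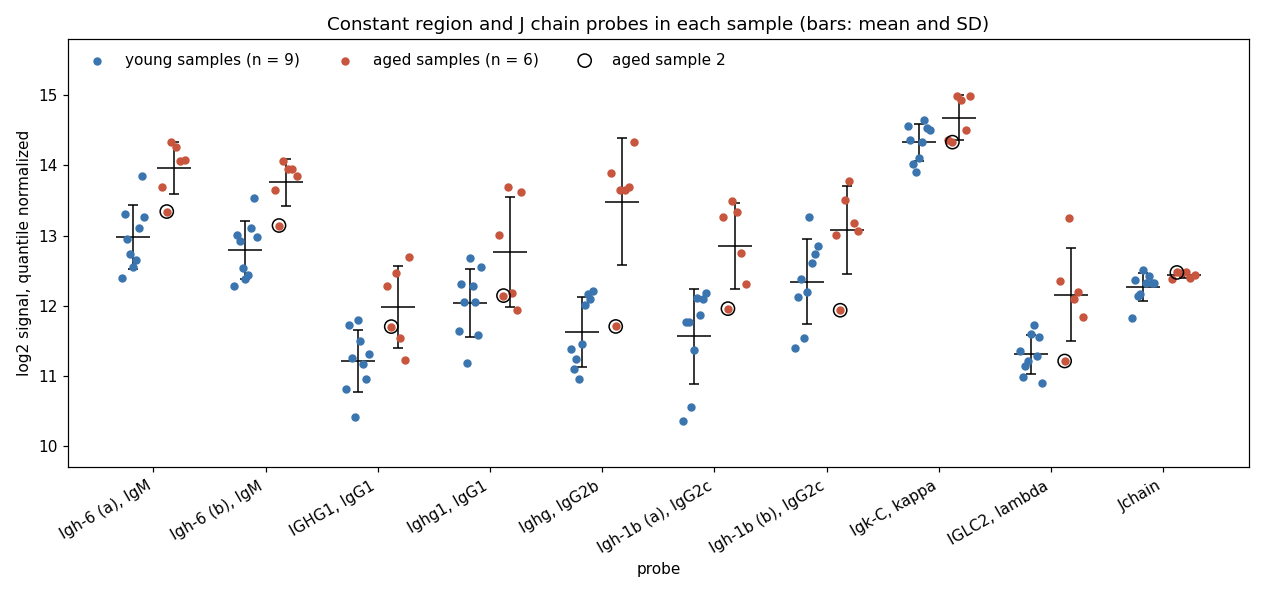
Log2 signal (vertical) of the 7 heavy chain constant region probes, Igk-C, IGLC2 and Jchain (horizontal) in the 9 young (blue) and 6 aged (red) samples, with the mean and SD of each group in black and aged sample 2 ringed. For Ighg, 5 aged samples lie at 13.64 to 14.33, above all young samples, for Ighg1 only 3 do so, and for Jchain the aged samples sit between 12.39 and 12.48, within the young range.

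The 11 heavy chain variable segment probes differed by 0.48 to 1.58, with a median of 0.85. IGHV14S3 had the largest difference (1.58). Its log2 signal was 9.60 at the lowest, 10.91 at the median and 12.00 at the highest in young samples. In aged samples it was 11.63 at the lowest and 12.32 at the median, with sample 6 the highest, and the groups overlapped only through aged sample 2 and young sample 1. IGHV8S7 followed, with 9.73, 10.51 and 11.84 in young and 10.73, 12.14 and 12.68 in aged samples, a difference of 1.28. Young sample 6 was its highest young sample and also that of IGHV8S6, a segment of the same named family.

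Igh-V11 was the heavy segment with the third largest difference and the largest within-group SD (0.79). In log2 units it was 11.17, 12.53 and 13.38 (lowest, median and highest) in young and 11.68, 13.68 and 14.17 in aged samples, a difference of 1.00. Young sample 1 was the lowest and young sample 8 the highest of the young. Among the aged, sample 2 was the lowest, at 11.68, and the other samples were at 13.29 or above.

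A set of 4 probes of the family IGHV1, namely IGHV1S120, IGHV1S124, IGHV1S35 and IGHV1S36, had a like profile over the samples. They were singled out after their values were seen, and segments of a family are so alike in sequence that their probes may bind shared transcripts, so they may not be separate measurements. IGHV1S36 was at 9.98, 10.51 and 11.10 in young and 9.45, 12.01 and 12.17 in aged samples, and IGHV1S35 at 10.33, 10.66 and 11.31 in young and 9.62, 12.15 and 12.36 in aged samples. Aged sample 2 lay below every young sample for all 4, and the other 5 aged samples lay above every young sample for all 4. The differences of 0.70 to 0.93 with all samples were 1.03 to 1.35 without aged sample 2. Another probe of the family, IGHV1S14, differed by 0.52, and its aged sample 2 (11.30) lay within the young range.

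Of the other heavy segments, IGHV8S6 differed by 0.74, the dim IGHV9S5 by 0.76 and Igh-VS107 by 0.48. In RefSeq, Igh-VS107 is an older name of Ighv7-3, which is annotated as a pseudogene.

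The 8 kappa variable segment probes differed by 0.25 to 2.14, with a median of 1.01. Igk-V21-4, an older name of Igkv3-4, had the largest difference and the largest within-group SD (1.01) of all 29 probes. On the log2 scale it was 7.77 at the lowest, 8.73 at the median and 10.08 at the highest in young samples, where it was detected in 5 of 9, and 9.61, 10.87 and 12.48 in aged samples, where it was detected in all 6. Young samples 1 and 2 lay within the aged range, aged samples 2 and 6 within the young range, and the other aged samples were at 10.75 or above. The means differed by 2.14 (8.75 ± 0.90, SD, n = 9, against 10.89 ± 1.15, SD, n = 6). Since 4 of the 9 young samples were not above background, the size of this difference is limited by the background, and it was 2.93 when the background was corrected with neqc.

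Igkv3-2 was measured by 2 probes, named IGKV3-2 and Igk-V21-2. IGKV3-2 was at 8.84, 9.89 and 10.91 in young and at 9.87, 11.65 and 12.00 in aged samples, a difference of 1.40, with aged samples 2 and 6 within the young range. Igk-V21-2 was at 9.80, 11.39 and 11.89 in young and at 12.07, 12.31 and 12.89 in aged samples, a difference of 1.14, and was the only probe for which the groups did not overlap. IGKV4-91 was at 8.84, 10.00 and 10.38 in young and 10.21, 10.79 and 11.90 in aged samples, a 2.30-fold higher level. For IGKV4-91 aged sample 2 (10.72) was not the lowest aged sample, and aged sample 5 was the highest.

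IGKV9-120, a segment whose young samples spread widely, was at 9.34, 9.98 and 11.27 in young and 10.35, 11.04 and 11.77 in aged samples, a difference of 0.88. Young samples 1, 5 and 6 (10.91 to 11.27) lay within the aged range. The other kappa segments differed by 0.70 (IGKV9-128), 0.87 (IGKV2-137) and 0.25 (the dim IGKV2-112). RefSeq annotates Igkv9-128 as a pseudogene. Along the kappa locus, where RefSeq (assembly GRCm38.p6) lists 162 variable segments, the named ones run from Igkv2-137, the first in order, over Igkv9-128 (position 11), Igkv9-120 (20), Igkv2-112 (30) and Igkv4-91 (56) to Igkv3-4 (159) and Igkv3-2 (161). They thus do not lie in a single block, and none lies between positions 56 and 159. Since they were named through the study's list, their order says nothing about which segments the cells use.

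The 29 probes had a higher median within-group SD than the tested probes, in a comparison not matched for brightness. Since 27 of them were named through the study's list, this is no result about immunoglobulins as a class. The median within-group SD of the 29 probes was 0.61, against 0.39 over all tested probes. With all samples, 11 of the 29, of which 9 were of variable segments, exceeded 0.64, the 90th percentile of the tested probes. Without aged sample 2, a choice made after its values were seen, the median was 0.44 against 0.37. The SD was larger in the aged than in the young group for 19 of 29 probes (65.5%), against 41.8% of tested probes, but without aged sample 2 for 11 of 29 (37.9%), against 32.1% of tested probes. Among heavy variable segments it was larger in the aged for 9 of 11, with a median SD of 0.36 in young and 0.70 in aged samples, and without aged sample 2 for 3 of 11, with a median SD of 0.31 in the aged. For Jchain the SD was 0.20 in young and 0.04 in aged samples. These counts are descriptions, and the larger count in the aged group rested on aged sample 2.

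The repeat arrays show the spread between 2 arrays of the same sample. The labels do not say which steps, from RNA to hybridisation, were repeated. For young sample 3 the median absolute difference between its arrays was 0.18 over the 29 probes, against 0.26 over all tested probes, and for young sample 4 it was 0.14 against 0.29. The largest were 0.72 for IGHV14S3 in young sample 3 and 0.55 for IGHV1S35 in young sample 4. The SD between young samples was 10.1 times that between repeat arrays for Ighg1 and 10.6 times for IGKV9-120, the largest ratios. The smallest were 1.03 for IGLC2, 1.15 for IGHV1S35 and 1.29 for IGKV9-128, so for these probes the repeat arrays spread nearly as much as the young samples. These ratios rest on 2 pairs of arrays, which for IGLC2 differed by 0.54 in young sample 3 and by 0.10 in young sample 4.

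Probes of the same gene were compared within each age group, over 18 relations in all (exact permutation tests, two-sided, adjusted over the 18). Pairs of different genes were chosen after values were seen. Igh-6 (a) and Igh-6 (b) followed each other in young (Pearson r = 0.971 with an exact p of 6.34e-05, adjusted 0.00114, and Spearman rho = 0.95 with an exact p of 0.000353, adjusted 0.00317) and in aged samples (r = 0.966 with an exact p of 0.00556, adjusted 0.02, and rho = 0.899 with an exact p of 0.0278, adjusted 0.0833). Once the 2 samples most distant from the median of the first probe of the pair were omitted, r was 0.929 in young and 0.767 in aged samples. Here and below the choice of these samples depends on which probe comes first, and omitting extreme samples narrows the range over which r is taken. IGHG1 and Ighg1 did so likewise in young (r = 0.926 with an exact p of 0.000491, adjusted 0.00221, and rho = 0.933 with an exact p of 0.00075, adjusted 0.0045) and aged samples (r = 0.967 with an exact p of 0.00972, adjusted 0.0292, and rho = 0.886 with an exact p of 0.0333, adjusted 0.0857). Without the 2 farthest samples r was 0.806 and 0.964.

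The Igh-1b probes followed each other in young samples (r = 0.932 with an exact p of 0.000154, adjusted 0.00126, and rho = 0.967 with an exact p of 0.000165, adjusted 0.00298, and r = 0.805 without the 2 farthest samples). In aged samples the relation did not pass adjustment (r = 0.818 with an exact p of 0.0306, adjusted 0.0786, and rho = 0.771 with an exact p of 0.103, adjusted 0.23), and r was 0.468 without the 2 farthest samples. The probes of Igkv3-2 followed each other in young (r = 0.87 with an exact p of 0.000209, adjusted 0.00126, and rho = 0.9 with an exact p of 0.00203, adjusted 0.00913, and r = 0.939 without the 2 farthest samples) and not past the threshold in aged samples (r = 0.472 with an exact p of 0.329, adjusted 0.481, and rho = 0.143 with an exact p of 0.803, adjusted 0.963, and r = -0.341 without the 2 farthest samples). Whether a relation differed between the age groups was not tested.

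Between classes and subclasses no relation passed adjustment. Ighg1 and Ighg had r = 0.306 in young (exact p of 0.417, adjusted 0.536, and rho = 0.267 with an exact p of 0.493, adjusted 0.683, and r = 0.097 without the 2 farthest samples) and r = 0.509 in aged samples (exact p of 0.347, adjusted 0.481, and rho = 0.2 with an exact p of 0.714, adjusted 0.918, and r = 0.335 without them). Ighg1 and Igh-6 (a), the IgG1 and IgM signals, had r = -0.043 in young (exact p of 0.914, adjusted 0.936, and rho = -0.05 with an exact p of 0.912, adjusted 0.974, and r = -0.024 without the 2 farthest samples) and r = 0.341 in aged samples (exact p of 0.49, adjusted 0.588, and rho = 0.6 with an exact p of 0.242, adjusted 0.435, and r = -0.267 without them). The remaining relations, of Ighg1 and of Ighg with Igh-1b (a) and of Ighg1 with Jchain, had adjusted p-values of 0.102 or more for r and of 0.0833 or more for rho. In young samples their r was larger than that of the pairs above. For Ighg with Igh-1b (a) it was 0.678 in young (rho = 0.75) and 0.518 in aged samples (rho = -0.086). For Ighg1 with Igh-1b (a) it was 0.564 in young and 0.238 in aged samples, and for Ighg1 with Jchain 0.581 and 0.029. With 9 and 6 samples, weaker relations could not be detected.

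**Figure D3:**
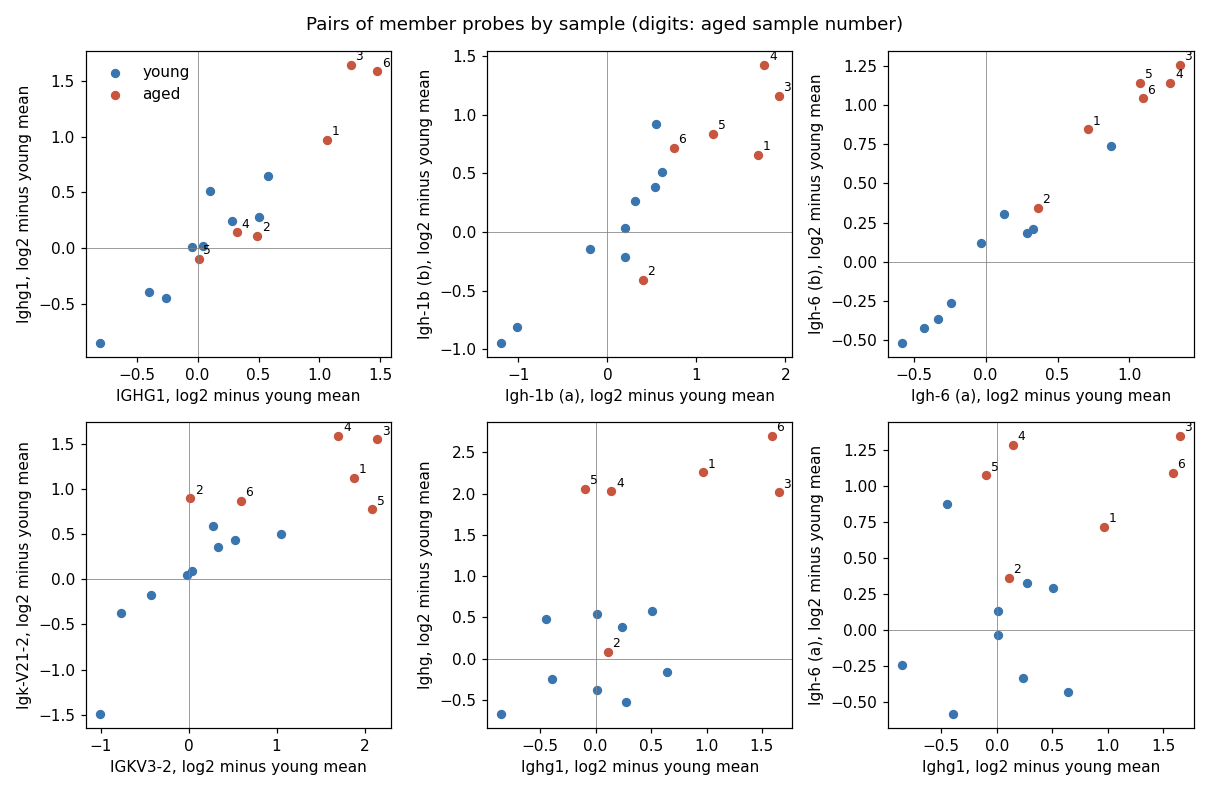
Each panel plots a pair of probes by sample, as log2 signal minus the young mean, with young samples in blue and aged samples in red with their number. Points of the same gene lie near a line for Igh-6 (r = 0.971 in young samples) and IgG1 (r = 0.926), whereas in the panel of Ighg1 against Ighg aged samples 4 and 5 are high for Ighg and within the young range for Ighg1.

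All 29 differences kept their direction when arrays were scaled to their 75th percentile, left without normalization or background-corrected with neqc. Their median was 1.06, 1.10 and 0.97 in these settings. The median over all tested probes was -0.01 under quantile normalization, 0.05 with the 75th percentile, 0.09 without normalization and -0.02 with neqc. It thus moved in the direction of the larger differences with the 75th percentile and without normalization, but not with neqc. IGHV9S5, dim in young samples, differed by 1.27 after background correction and by 0.76 before it.

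**Figure D4:**
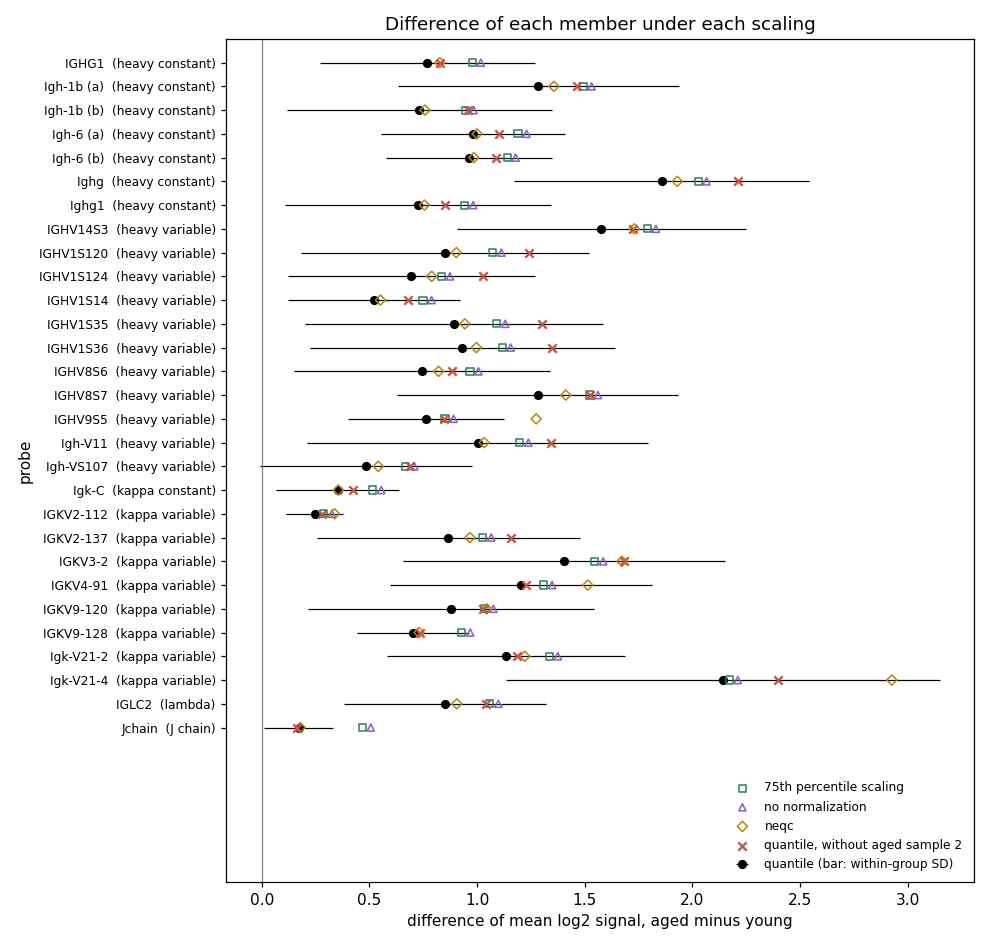
Difference of mean log2 signal, aged minus young (horizontal), of each probe (vertical) under quantile normalization (black, with the within-group SD as a bar), 3 other treatments of the arrays (open symbols) and without aged sample 2 (crosses). Every point lies above 0, from 0.17 for Jchain to 2.14 for Igk-V21-4 under quantile normalization.

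Genes that ASCs use to transcribe, process, fold and assemble immunoglobulin were taken from a list of 23, of which 22 had a probe and 19 passed the filter. The list was chosen with earlier results of these data known, and the study had reported Xbp1, Irf4 and Prdm1 as higher in aged ASCs. Each gene was represented by its brightest tested probe. The shares below therefore stand beside those of all tested probes as a description only. With limma, 5 of them rose and 0 fell in aged samples after adjustment over all tested probes (threshold 0.05), which is 26.3% higher, against 1.06% of tested probes higher and 0.325% lower. Before adjustment 13 were higher (68.4%) and 1 lower (5.26%), against 8.81% and 5.27% of tested probes. The lower gene was Cstf2, with a difference of -0.50 (adjusted p = 0.26 from limma). Of the 19 genes, the means of 17 were higher (89.5%, against 48.2% of tested probes) and those of 2 lower. Their median difference was 0.59, against -0.01 over all tested probes. Mzb1, which encodes an endoplasmic reticulum cochaperone that promotes antibody assembly and secretion, rose by 1.17 (standard error 0.24, adjusted p = 0.0152 from limma). Pou2af1, a coactivator of octamer-dependent immunoglobulin transcription, rose by 0.99 (standard error 0.20, adjusted p = 0.0152 from limma), from 12.41 ± 0.34 (SD, n = 9) to 13.39 ± 0.51 (SD, n = 6).

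Pdia4, a disulfide isomerase, rose by 1.33 (standard error 0.28, adjusted p = 0.0185 from limma), and Erp44, which retains unassembled disulfide-linked proteins, by 0.75 (standard error 0.18, adjusted p = 0.0455 from limma). Xbp1, the transcription factor of the secretory program, rose by 0.82 (standard error 0.21, adjusted p = 0.0499 from limma). Of the brightest others, Hsp90b1 (an endoplasmic reticulum chaperone of the HSP90 family) differed by 0.53 (adjusted p = 0.191), Hspa5 (BiP, which binds free heavy chains) by 0.43 (adjusted p = 0.419), Calr (calreticulin) by 0.20 (adjusted p = 0.833) and Dnajb9 (a BiP cochaperone) by 0.57 (adjusted p = 0.168), all from limma. Leaving out a sample changed the count of 5, to 0 when aged sample 3 was omitted, to 7 for aged sample 2 and to 2 for aged sample 1. Of the listed genes 4 are also plasma cell markers, whose summed signal was higher in the aged samples, as given above.

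**Figure D5:**
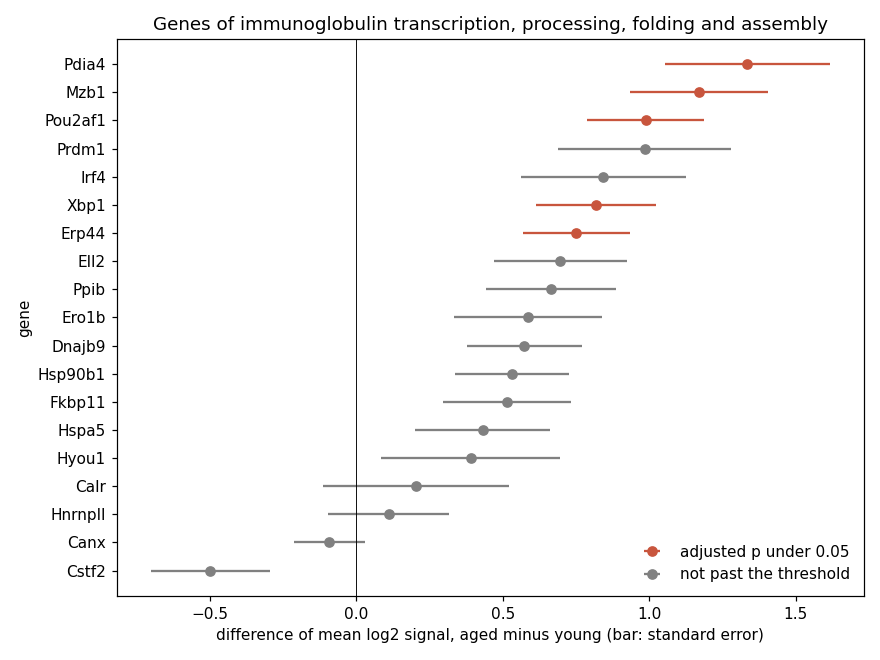
Difference of mean log2 signal, aged minus young (horizontal, with the standard error as a bar), of the 19 tested genes of immunoglobulin transcription, processing, folding and assembly (vertical). Pdia4, Mzb1, Pou2af1, Xbp1 and Erp44, in red, passed an adjusted p of 0.05, with differences of 0.75 to 1.33, and the genes in grey did not.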

How the data were processed

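The intensity values deposited by the authors are bead-averaged probe signals of each array, without background subtraction or normalization, and a detection p-value deposited by the authors stands beside each signal. The authors also deposited quantile normalized intensity values for 26509 of the probes, which were used as an alternative; on the log2 scale they differed from the values computed here by a median of 0.04. No deposited column of comparisons was used.

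Quantile normalization and log2 transformation used limma 3.58.1 (R 4.3.3, data.table version 1.17.8), and repeat arrays were averaged. A probe was tested if its detection p-value was under 0.05 in 7.5 or more of the 15 samples and its highest and lowest samples differed by 1.2-fold or more, which left 11073 probes. The age groups were compared by a two-sided moderated test (lmFit, eBayes, trend over intensity), p-values were adjusted over the tested probes by Benjamini-Hochberg, and the procedure was tested on simulated data. The number of arrays limits the precision. That samples come from separate mice is not stated for each, so p-values measure the spread between samples, which may in part be technical.

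The members and gene lists were chosen with earlier results of these data known. Probe names came from the platform annotation (20873 probes with 1 gene, 9 with several) and from the symbols of the probes that the study lists, and 19 of 29 matched a gene in RefSeq. A gene of a list was represented by its brightest tested probe. Named with values were all constant region probes and the J chain, for heavy and kappa variable segments the 3 with the largest difference and the 3 with the largest within-group SD, the assembly genes past the threshold and 4 others of high signal. IGHV1S120, IGHV1S124, Igk-V21-2 and the assembly gene Cstf2 were singled out after their values were seen. Of the cell type lists, T cell (3 of 3 genes with a probe, summed signal 755 to 2239 in young and 748 to 1091 in aged samples), basophil (4 of 4, 1615 to 3619 and 1283 to 3024), mature B (4 of 6, 2181 to 5338 and 2055 to 4127), erythroid (1 of 3, 357 to 1623 and 365 to 1114) and monocyte (1 of 2, 252 to 366 and 278 to 405) markers overlapped between the groups. Plots used matplotlib 3.10.9 with pandas 2.3.3.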

Additional observations from a re-analysis of the deposited data

Results flagged for a closer look

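In each probe and age group the highest and lowest sample were compared with their nearest neighbour by Dixon's criterion, over 58 groups of samples. A gap that large arises by chance in about 1 of 20 groups, and 9 were found, 7 of them for aged sample 2. Aged sample 2 lay far below the other aged samples for Ighg (11.71, nearest 13.64), IGHV1S120 (9.77, nearest 11.55), IGHV1S124 (8.87, nearest 10.37), IGHV1S35 (9.62, nearest 11.60), IGHV1S36 (9.45, nearest 11.44), Igh-V11 (11.68, nearest 13.29) and Igh-VS107 (10.24, nearest 11.29), all on the log2 scale. Among the young, sample 2 was low for IGHV1S14 (10.89, nearest 11.45) and sample 6 for Igk-V21-2 (9.80, nearest 10.93).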

How the results depend on the processing

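All 29 members had a higher mean in the aged under each of the 26 alternatives run, no difference reversed, and their median difference was 0.81 to 1.10 under other settings and 0.79 (without aged sample 3) to 1.09 (without aged sample 2) with a sample left out. The Ighg1 difference passed the threshold only with the methods' t-test without adjustment (0.73, p = 0.0436 from the t statistic of 9 and 6 samples, not an exact test); its adjusted p was 0.13 to 0.595 over the other alternatives, and with a sample left out its difference was 0.54 to 0.89. That of Jchain was 0.11 to 0.20 with a sample left out. The count of 5 assembly genes was 2 with the 75th percentile, 3 without normalization, 0 without a filter, 3 with the deposited values, 13 with the methods' t-test unadjusted, 2 with Benjamini-Hochberg and 0 to 7 with a sample left out; 11 of the 15 samples, when left out, moved it by over 1.5 times downwards, and the cause was not tested. Over all tested probes the called count of 153 was 89 with the 75th percentile, 64 without normalization, 45 without a filter, 335 for probes detected in all samples of a group, 1492 with the unadjusted t-test, 99 with its Benjamini-Hochberg adjustment, and 40 (without aged sample 3) to 317 (without aged sample 2). The labels do not say whether numbers shared by young and aged samples pair them. Deviations of samples of the same number correlated at -0.10 to 0.23, and samples of different numbers were not compared. With the replicate block, Ighg1 differed by 0.74 (adjusted p = 0.258 from limma) and Jchain by 0.21 (adjusted p = 0.513 from limma). In that fit 1 assembly gene and 57 probes in all were called. Without young sample 8, 4 probes had every aged above every young sample, and without young sample 1 or 5, 2. Dim probes such as IGKV2-112 and IGHV9S5 have little signal over background in young samples, which limits their differences.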
